A study of Mus musculus with 4 samples.

Results

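The nuclei described here were taken for inhibitory neurons of Adarb2 type, and 337 nuclei of 32048 barcodes passed the rule. A nucleus entered with at least 1500 unique molecular identifiers (UMIs, each standing for 1 captured RNA molecule) and at most 5% mitochondrial UMIs. It also needed at least 2 UMIs of Gad1 and Gad2 together, at least 2 of Adarb2, no fewer Adarb2 UMIs than Lhx6, Nxph1, Sst and Pvalb UMIs together, and at most 1 of the precursor genes Pdgfra, Vcan and Cspg4 detected. These are called the Adarb2-gated nuclei below. Since measured counts chose them, the levels of the genes in the rule are given as a description. The wild-type (WT) library held 124 of them, PS19 replicates 1 and 2 held 51 and 79, and the TG_PS19 library held 83.

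Single-nucleus RNA was measured with a 10x Genomics 3′ kit in 4 libraries from frozen, pooled mouse hippocampus. Next to the 1 WT library stood 2 libraries of PS19 mice, a B6;C3 line in which the prion promoter (Prnp) drives human MAPT with the P301S mutation (1N4R tau). The third genotype, TG_PS19, carried the same tau transgene and a SORLA transgene at the Rosa26 locus under a CMV/β-actin promoter, in 1 library. All groups are mixtures of nuclei from pooled tissue, and how many animals were pooled, how old they were and of which sex is not given in the sources used here. Nothing says that the PS19 libraries came from separate animals, so p-values measure only the spread between these samples, which may be technical.

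Adarb2 marks GABA-releasing interneurons that arise in the caudal ganglionic eminence, as Lhx6 and Nxph1 mark those of the medial eminence. In the hippocampus this branch includes cells with vasoactive intestinal peptide (Vip), which mostly inhibit other interneurons, Cck basket cells with cannabinoid receptors, and neurogliaform cells that release GABA diffusely and express Lamp5, Reln and Ndnf. GABA is made by the decarboxylases encoded by Gad1 and Gad2 and loaded into vesicles by Slc32a1, whereas Slc17a7 loads glutamate and marks excitatory neurons such as dentate granule cells.

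The markers did not bear out the label for all gated nuclei. Gad2 was detected in 49.0% of the 337 nuclei, Slc32a1 in 22% and Vip in 16.0%, whereas the excitatory marker Slc17a7 was detected in 40.4%. Clustering divided the nuclei into 7 clusters, of which 4 were rich in Gad2 (157 nuclei, 46.6%) and 2 were rich in Slc17a7 (155 nuclei, 46.0%). In the Gad2-rich clusters, Gad2 was detected in 91.1% of nuclei, Slc32a1 in 44.6% and Slc17a7 in 5.73%. In the Slc17a7-rich clusters these shares were 8.39%, 1.29% and 75.5%. The 2 kinds of nuclei were of similar depth, with medians of 8358 and 9279 UMIs. The clusters were made from the same counts, so these contrasts describe them and were not tested.

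What let the Slc17a7-rich nuclei through the gate was Gad1 with Adarb2 at a lower level. Gad1 was detected in 98.1% of them, against 87.3% of the Gad2-rich nuclei. Their median was 15 Adarb2 UMIs, against 58 in the Gad2-rich nuclei, and their summed level was 1684 counts per 1000000 UMIs (CPM) against 8398 CPM. Outside the gate, among nuclei with at least 2 Slc17a7 UMIs and none of Gad1 or Gad2, Adarb2 was detected in 62.0% to 69.8% by library, at 674 to 880 CPM and a median depth of 8834.5 to 12349.5 UMIs. Nuclei rich in oligodendrocyte RNA, which should lack Adarb2, had it in 6.87% to 12.2% at a median depth of 2312 to 3129 UMIs. Prox1, a transcription factor of both granule cells and interneurons of the caudal eminence, was detected in 83.9% of Slc17a7-rich and 59.2% of Gad2-rich nuclei.

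**Figure D1:**
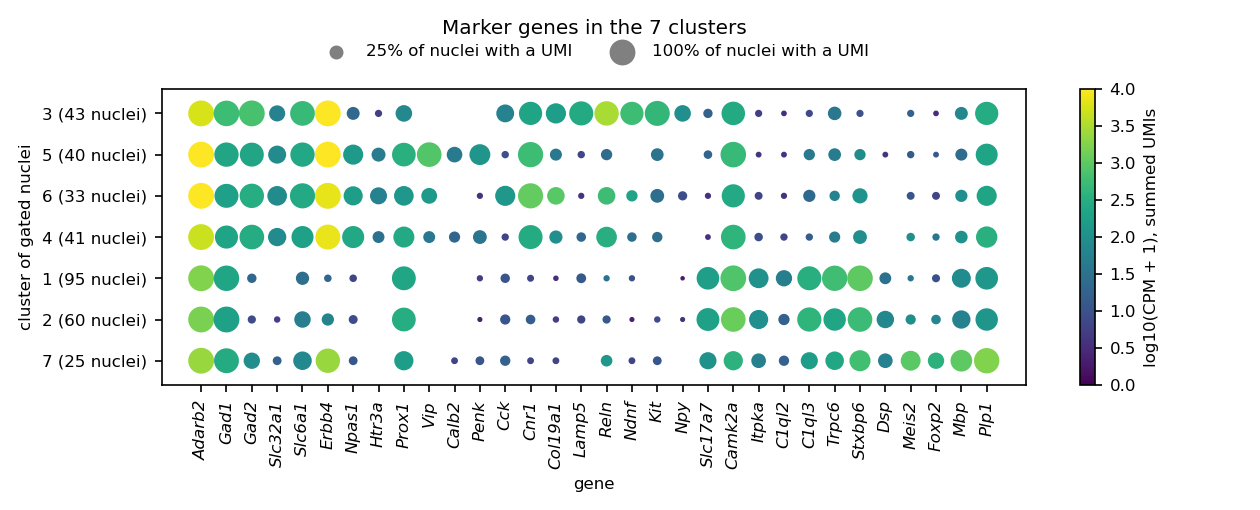
Marker genes (horizontal axis) in the 7 clusters of Adarb2-gated nuclei (vertical axis), where dot size is the percent of nuclei with at least 1 UMI and colour is log10(CPM + 1) of the summed UMIs. Clusters 3, 5, 6 and 4 carry Gad2 and clusters 1 and 2 carry Slc17a7, detected in 91.1% and 75.5% of the nuclei of those clusters.

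At the edge of the rule, the 173 nuclei with exactly 2 Gad1 and Gad2 UMIs had Gad2 in 23.1% and Slc17a7 in 61.3%. Just outside, 779 nuclei with 1 such UMI had Gad2 in 5.78% and Slc17a7 in 75.2%. The Adarb2 limit touched few nuclei, with 13 inside at 2 to 4 UMIs and 4 outside at 1 UMI. A further 31 nuclei were kept out by 2 or 3 precursor genes, and 16.1% of those had Gad2.

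Within the Gad2-rich nuclei, 3 clusters matched a subclass list. Cluster 3 (43 nuclei) was neurogliaform-like and raised 7 of the 8 Lamp5 markers. Its first leading gene was Nxph1, a gene of the medial eminence. Over the other gated nuclei it raised 2 of 8 genes of the Lhx6 and Nxph1 list and 0 of 6 caudal eminence genes. It held Lamp5 in 86.0% of nuclei and Reln, a secreted glycoprotein that guides neuronal layering, in 88.4%. Cluster 5 (40 nuclei) was Vip-like, with Vip in 90% and the opioid precursor Penk in 62.5%. Cluster 6 (33 nuclei) was Cck-like by Cck (57.6%), the cannabinoid receptor gene Cnr1 (93.9%) and the collagen gene Col19a1 (42.4%), and it also raised 3 markers of the Vip list. Cluster 4 (41 nuclei) stayed unnamed. Its leading genes included Thsd7b and Mgat4c, it had Npas1, a transcription factor of the caudal eminence, in 70.7%, and 90.2% of its nuclei had Gad2.

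Cluster 1 (95 nuclei) was dentate granule-like. It raised C1ql2, C1ql3, Trpc6 and Stxbp6 and was led by Rasgrp1, Trpc6 and the neurotrophin gene Bdnf. Cluster 2 (60 nuclei), led by Syt10 and Chst9, raised Slc17a7 and only 2 granule markers and stayed unnamed. Cluster 7 (25 nuclei) also stayed unnamed. All 7 oligodendrocyte markers were raised in it, and 14 of its nuclei were scored as doublets (2 nuclei under 1 barcode). Meis2, Foxp2 and Tcf7l2 of the list for GABA neurons outside the hippocampus were also raised. The 10 genes of that list summed to 464 CPM in WT nuclei with no Gad1 or Gad2 UMI, against 313 CPM in the gated nuclei of WT. A raised gene of the list thus does not by itself mark a GABA neuron.

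The share of Gad2-rich nuclei differed little between the 4 libraries. The Gad2-rich share was 45.2% (95% exact binomial interval 36.2 to 54.3) in WT, 49.0% (34.8 to 63.4) and 50.6% (39.1 to 62.1) in PS19 replicates 1 and 2, and 43.4% (32.5 to 54.7) in TG_PS19. Neurogliaform-like nuclei made up 14.5% of gated nuclei in WT, 13.7% and 13.9% in PS19 and 8.43% (3.46 to 16.6) in TG_PS19. Vip-like nuclei made up 8.87% in WT, 13.7% and 11.4% in PS19 and 15.7% (8.61 to 25.3) in TG_PS19. The intervals, which cover counting error only, overlapped in each case. Cck-like nuclei varied most between the PS19 replicates, at 3.92% and 15.2%. A finer clustering (resolution 1) set apart 21 nuclei led by Meis2 and Foxp2. They were 9.68% of gated nuclei in WT, 3.92% and 2.53% in PS19 and 6.02% in TG_PS19. Another 38 nuclei, led by Ranbp3l, were 16.1%, 5.88%, 6.33% and 12.0% in the same order of libraries. Intervals overlapped here too, and these shares were not tested.

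**Figure D2:**
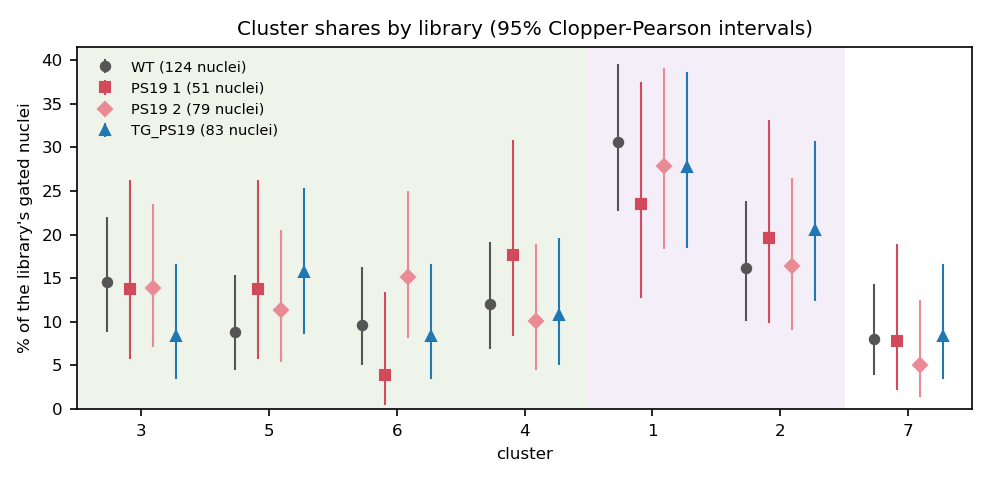
Share of each library's Adarb2-gated nuclei (percent) in each of the 7 clusters, with 95% exact binomial intervals. Green shading marks the Gad2-rich and purple the Slc17a7-rich clusters, and the intervals of the 4 libraries overlap in the neurogliaform-like cluster 3 (8.43% to 14.5%) and the Vip-like cluster 5 (8.87% to 15.7%).

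Adarb2-gated nuclei were 1.14% (0.946 to 1.35) of WT nuclei past the depth and mitochondrial limits. They were 1.18% (0.882 to 1.55) and 1.65% (1.31 to 2.05) of PS19 nuclei and 1.04% (0.826 to 1.28) of TG_PS19 nuclei. The gap between the PS19 replicates was larger than that between WT and TG_PS19. Among nuclei of at least 3000 UMIs it was the smaller gap, with 2.24% in WT, 2.20% and 2.42% in PS19 and 1.92% in TG_PS19. Of all nuclei with at least 2 Gad1 and Gad2 UMIs, the gate took 50% in WT, 58.0% and 60.3% in PS19 and 43.9% in TG_PS19. Set against the Lhx6-gated nuclei, chosen by the same limits with Lhx6, Nxph1, Sst and Pvalb exceeding Adarb2, the Adarb2 share of both kinds together was 63.6%, 75.0%, 76.0% and 58.5% in the same order. With 1 library of WT and TG_PS19, these shares were not tested.

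Summed over the gated nuclei, each library gave 510537 to 1003570 UMIs, with median depths of 7444.5 in WT, 9327 and 11261 in PS19 and 8673 in TG_PS19. No barcode of a gated nucleus was shared between libraries. Doublet scores marked 23 gated nuclei in WT, 2 and 6 in PS19 and 11 in TG_PS19. The share of barcodes to mark was fixed beforehand by the number of barcodes in a library. It was 10.2% in WT, 3.7% and 3.92% in PS19 and 7.77% in TG_PS19. These counts thus do not measure doublet rates, and removing marked nuclei takes more from WT than from PS19. By Xist and Y-linked UMIs, 45 gated nuclei of TG_PS19 were called female and 25 male. In the other libraries 113, 45 and 76 nuclei were called male and 0 female, so sex differs between TG_PS19 and the rest.

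The transgenes checked the labels. Human MAPT had 0 UMIs in WT, 10 and 16 in PS19 and 10 in TG_PS19, or 0, 19.6, 16.8 and 12.2 CPM. Against the floor of 3 counts that 0 WT UMIs allow, MAPT was at least 5.94-fold higher in PS19 and at least 4.07-fold higher in TG_PS19. Human SORL1, the transgene's transcript for the sorting receptor SORLA, was seen in TG_PS19 alone, with 28 UMIs in 23 of 83 nuclei. That was at least 16.6-fold above PS19, with a floor of 3 counts over both PS19 libraries. SORL1 was found in both kinds of nuclei, at 40.5 CPM in the Gad2-rich and 27.5 CPM in the Slc17a7-rich clusters of TG_PS19. Mouse Mapt was at 360, 349, 392 and 290.5 CPM in WT, PS19 replicates 1 and 2 and TG_PS19, and mouse Sorl1 at 94.7, 125, 79.7 and 107 CPM. Neither mouse gene passed the test in any contrast. Reads of a human transgene that resemble the mouse gene could be counted under either name.

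Among the gate's own genes, Adarb2 (an RNA-editing family member, chr13:8202866-8768747, plus strand, mouse build GRCm38) was at 5262 CPM in WT, 3620 and 5177 in PS19 and 4495 in TG_PS19. Gad1 was at 291, 311, 241 and 214 CPM in that order. Gad2 was at 221, 202 and 219 CPM in WT and PS19 and at 115 in TG_PS19. TG_PS19 was thus the lowest library for both decarboxylases. Slc32a1, which the gate did not use, was at 49.8, 31.3, 43.0 and 13.4 CPM. It was lowest in TG_PS19, but the difference from PS19 did not pass the test (log2 fold change -1.42, SE 0.46, adjusted p = 0.131). Cck was at 25.9, 23.5, 40.9 and 23.1 CPM and did not pass either (log2 fold change -0.47, SE 0.42, adjusted p = 0.804).

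**Figure D3:**
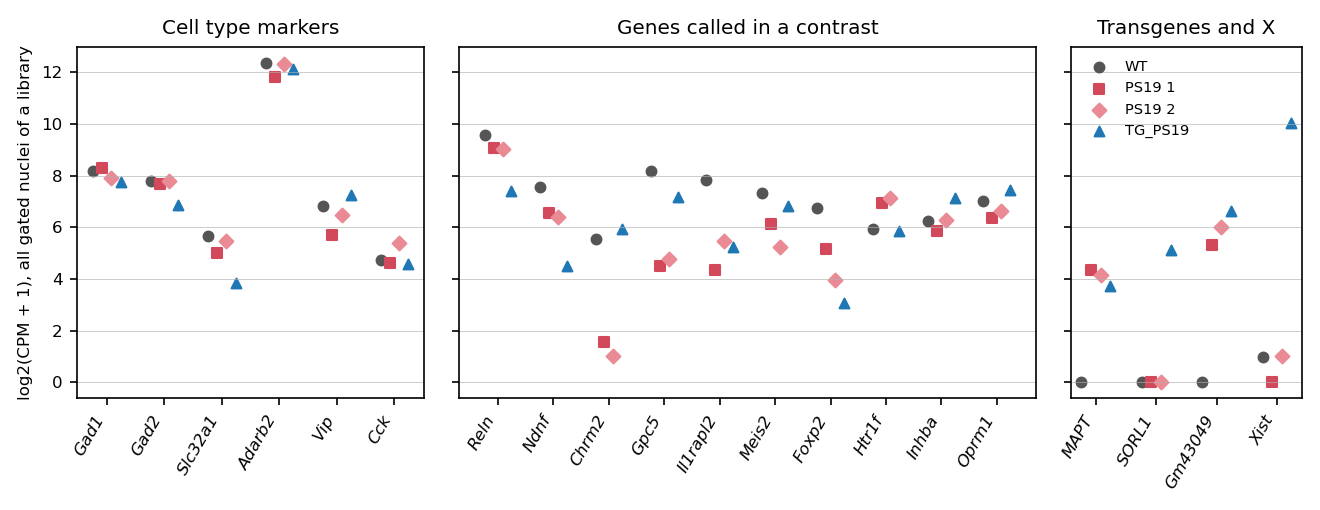
Level of markers, called genes, transgenes and X-linked RNAs in the summed Adarb2-gated nuclei of each library, on a log2(CPM + 1) axis, with 1 point per library. Reln and Ndnf are lowest in TG_PS19 (167 and 21.9 CPM), Gpc5 is lowest in the 2 PS19 libraries (21.5 and 26.2 CPM), and SORL1 is above 0 in TG_PS19 alone.

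In PS19, genes lower than in WT included Gpc5, Il1rapl2, Chrm2, Rmst, 2 astrocyte markers and 2 genes listed for GABA neurons outside the hippocampus. Higher genes included the non-coding RNA Gm43049 and the serotonin receptor gene Htr1f. Of 11248 genes tested, 37 passed (0.329%), with 6 higher (0.0533%) and 31 lower (0.276%) in PS19. The test was edgeR's quasi-likelihood test on UMIs summed per library, with Benjamini-Hochberg adjustment and a threshold of 0.05. Its only residual degree of freedom came from the PS19 pair, and the lone WT and TG_PS19 libraries were assumed to vary like it. Another scaling (RLE) called 12 and DESeq2 called 1, Gpc5. Of the genes named below, Slc1a2, Slc1a3, Meis2, Htr1f, Sema3c, Neurod2, Malat1, Ndnf and Unc13c were called by neither.

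Gpc5 encodes a glypican, a heparan sulfate proteoglycan of the cell surface (chr14:115092215-116525179, plus strand). It was at 292 CPM in WT, 21.5 and 26.2 in PS19 and 143 in TG_PS19. Both PS19 libraries lay far below WT, by a log2 fold change of -3.53 (SE 0.26, adjusted p = 1.93e-18). The 293 WT UMIs came from 29 nuclei, and 91 of them from 1 nucleus. Without the nuclei scored as doublets the fold change was -1.21 and did not pass (adjusted p = 0.152). Nuclei with no Gad1 or Gad2 UMI had the same order, at 2751 CPM in WT, 1438 and 1608 in PS19 and 2604 in TG_PS19. The antisense transcript Gm20713 lies within Gpc5 on the other strand, so their reads cannot be told apart if strand was not counted.

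Il1rapl2, an X-linked synaptic adhesion gene (chrX:137570608-138846946, plus strand), was at 225 CPM in WT, 19.6 and 43.0 in PS19 and 36.5 in TG_PS19. It was the 1 of 22 tested adhesion and scaffold genes that passed in PS19, where 9 of the 22 were above 0 (log2 fold change -2.68, SE 0.26, adjusted p = 5.02e-13). Of its 226 WT UMIs, 147 lay in Slc17a7-rich clusters and 29 in Gad2-rich ones. The Slc17a7-rich clusters also held 63 of the 161 Meis2 and 48 of the 106 Foxp2 UMIs of WT. The 10 listed genes of GABA neurons outside the hippocampus summed to 291 CPM in these clusters in WT. The sums were 27.1 and 15.9 CPM in PS19 and 75.7 in TG_PS19. In the finer clustering, Il1rapl2 was a leading gene of the 21 nuclei led by Meis2 and Foxp2. The fold change was -3.11 within the Slc17a7-rich clusters and -0.81 within the Gad2-rich clusters, values with no test. Over all gated nuclei it was -3.48 without PS19 replicate 2. Among nuclei outside the gate with at least 1 Slc17a7 UMI and none of Gad1 or Gad2, called Slc17a7 nuclei below, WT was instead the lowest library, at 87.0 CPM against 120 and 127 in PS19.

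Of the 4 astrocyte markers tested, 2 passed and were lower in PS19, the glutamate transporter genes Slc1a2 and Slc1a3. Of the 4, 1 was above 0, and they had a median log2 fold change of -1.24, beside 0.00 over all genes tested. Slc1a2 was at 315 CPM in WT, 127 and 154 in PS19 and 192 in TG_PS19 (log2 fold change -1.11, SE 0.22, adjusted p = 0.00151). WT lay above both PS19 replicates for each. Outside the list, the lipid carrier gene Apoe, named after its values were seen, fell by 1.27 on the log2 scale (adjusted p = 0.000108). DESeq2, which called Gpc5 alone in this contrast, did not call Apoe. Whether RLE scaling called Apoe is not given here.

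The 7 astrocyte markers on the list summed to 833 CPM in WT, 738 and 639 in PS19 and 728 in TG_PS19. In the Gad2-rich clusters alone the sums were 618, 320, 304 and 495 CPM. In the Slc17a7-rich clusters they were 1085, 1095, 1005 and 923 CPM, so PS19 replicate 1 was not below WT there. In nuclei with no Gad1 or Gad2 UMI they were 3749 CPM in WT, 2449 and 2528 in PS19 and 3058 in TG_PS19. Aldh1l1, Aqp4 and Gfap were at 0 in PS19 replicate 1 and Aldh1l1 in replicate 2. Slc1a2 no longer passed without nuclei scored as doublets (log2 fold change -0.14, adjusted p = 0.994). Whether RNA of astrocytes had a part in these calls was not tested.

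Meis2 and Foxp2, transcription factors listed for GABA neurons outside the hippocampus, were the 2 of 4 tested genes of their list that passed, both lower. None of the 4 was above 0 and their median log2 fold change was -1.80. Meis2 was at 160 CPM in WT, 68.6 and 36.7 in PS19 and 112 in TG_PS19 (log2 fold change -1.67, SE 0.26, adjusted p = 6.73e-06). Foxp2 was at 106, 35.3, 14.7 and 7.29 CPM (log2 fold change -2.20, SE 0.32, adjusted p = 2.65e-06), and -2.79 and -1.55 without PS19 replicates 1 and 2. Few nuclei carried Meis2. Those with at least 5 of its UMIs numbered 9 in WT, 1 and 2 in PS19 and 6 in TG_PS19, and in WT they held 148 of the 161 UMIs. In the Gad2-rich clusters the Meis2 fold change was 2.22, the opposite sign, at 8.37 CPM in WT and 4.5 and 62.4 CPM in PS19. Fewer nuclei of this kind and less RNA in each cannot be told apart in a library sum.

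Other called genes rested on few nuclei. Chrm2, a muscarinic acetylcholine receptor gene, had 46 UMIs in WT, 1 in each PS19 library and 49 in TG_PS19, a ratio of WT to PS19 of 33.6 (counting interval 8.78 to 285). In WT 41 of its UMIs lay in 1 nucleus and in TG_PS19 45 did. The long non-coding RNA Rmst had 43 UMIs in 11 nuclei of WT, 12 of them in 1 nucleus, 0 in both PS19 libraries and 9 in TG_PS19, so it was at least 20.9-fold lower in PS19. Across the 31 genes lower in PS19, a median of 18.5% of WT UMIs came from the highest nucleus, against 6.67% over all genes with at least 20 WT UMIs. For 5 of the 31, 1 nucleus gave at least 50% of the UMIs. In nuclei with no Gad1 or Gad2 UMI, WT was above both PS19 libraries for 23 of the 31, or 74.2%, against 38.8% of all genes tested.

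**Figure D4:**
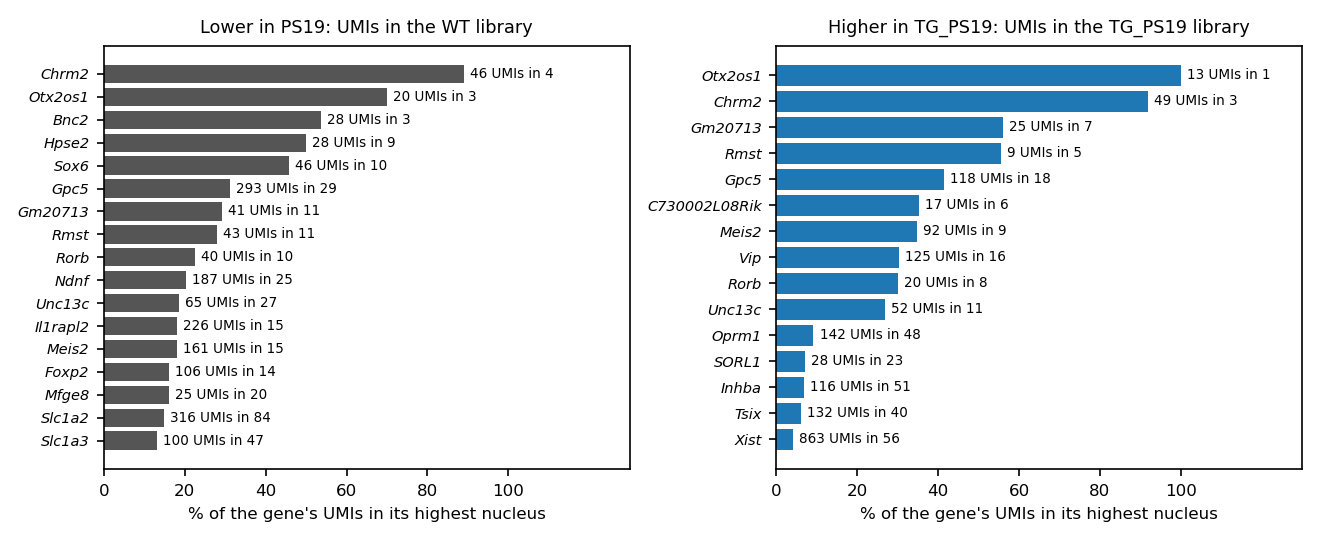
Share of a gene's UMIs (percent, horizontal bars) that came from its single highest nucleus, for named genes lower in PS19 in the WT library (left) and higher in TG_PS19 than in PS19 in the TG_PS19 library (right), with UMIs and the nuclei that carry them beside each bar. For Chrm2, 41 of 46 WT UMIs and 45 of 49 TG_PS19 UMIs came from 1 nucleus, whereas the 28 SORL1 UMIs came from 23 nuclei.

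Fewer genes were higher in PS19. Htr1f, an inhibitory serotonin receptor gene (chr16:64924729-65105854, minus strand), was at 59.8 CPM in WT, 121 and 139 in PS19 and 57.1 in TG_PS19. Both PS19 libraries stood above both others (log2 fold change 1.17, SE 0.26, adjusted p = 0.00771). It was not called after thinning (adjusted p = 0.144). Its UMIs were spread over 41, 37, 59 and 34 nuclei, and the fold change was 1.76 in the Gad2-rich and 0.72 in the Slc17a7-rich clusters. Slc17a7 nuclei outside the gate had 134 CPM in WT, 174 and 164 in PS19 and 155 in TG_PS19. Sema3c, a secreted guidance factor, rose by a log2 fold change of 1.49 (adjusted p = 0.00805), from 29.9 CPM in WT to 50.9 and 104 CPM, and by 0.80 without PS19 replicate 2. Neurod2, a transcription factor of excitatory neurons, rose by 1.63 (adjusted p = 0.0169) and had 0 UMIs in the Gad2-rich nuclei of WT. The nuclear RNA Malat1 was higher by 0.36 (adjusted p = 0.0073), at 52148 CPM in WT and 70424 and 60561 CPM in PS19. The edgeR test no longer called it with a robust prior (adjusted p = 0.612) or among genes of at least 20 CPM (adjusted p = 0.892).

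The non-coding RNA Gm43049 (chr3:140692038-140760704, minus strand) separated WT from all transgenic libraries. It had 0 UMIs in WT, 20 and 61 in PS19 and 81 in TG_PS19, at least 18.5-fold higher in PS19 and at least 32.9-fold higher in TG_PS19. The same held outside the gate, where nuclei with no Gad1 or Gad2 UMI had 0.05 CPM in WT, 31.9 and 36.2 in PS19 and 63.2 in TG_PS19.

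Between TG_PS19 and PS19, the neurogliaform genes Reln and Ndnf were lower and the peptide gene Vip was higher in TG_PS19, beside sex-linked genes and many non-coding RNAs. Of 11248 genes, 107 passed (0.951%), 96 of them higher (0.853%) and 11 lower (0.0978%). Higher genes made up 89.7% of the calls, and 73.2% when libraries were scaled by their totals alone. RLE scaling called 12 genes and DESeq2 called 4. Of the genes named below, Ndnf, Vip, Htr1f, Inhba, Oprm1, Unc13c, Meis2, Rorb, Rmst, Ddx3y, Uty, Sema3e, Rab34 and Rad18 were called by neither of these. PS19 held no nuclei called female, so sex differed with genotype in this contrast. With the 25 TG_PS19 nuclei called male alone, 157 genes passed, 49 of them among the 107.

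Reln (chr5:21884454-22344702, minus strand) was at 766 CPM in WT, 531 and 525 in PS19 and 167 in TG_PS19. TG_PS19 was the lowest and the PS19 replicates were nearly equal, at a mean of 528 ± 4.01 CPM (SD, n = 2). That SD does not cover the spread between nuclei. The highest nucleus gave 43.8% of the TG_PS19 UMIs, which were spread over 15 nuclei. For PS19 replicate 1, with 13 such nuclei, this share was 31.7%. It was lower for PS19 replicate 2 (15.2%) and for WT (11.3%). The log2 fold change of Reln against PS19 was -1.57 (SE 0.22, adjusted p = 4.91e-07), and DESeq2 also called it (adjusted p = 0.0109). Reln was detected in 32.3% of WT, 25.5% and 32.9% of PS19 and 18.1% of TG_PS19 nuclei, and in 25.8%, 13.7%, 25.3% and 10.8% after thinning each nucleus to 1500 UMIs. Oligodendrocyte-rich nuclei had it in 1.14% to 2.51% at the shallower depths given above. The fold change was -1.30 in the Gad2-rich clusters, which held 133 of the 137 TG_PS19 UMIs. It was -4.45 with the 25 TG_PS19 nuclei called male and -1.69 with the 45 called female. With a stricter gate of at least 3 UMIs it was -1.46 (adjusted p = 0.0763), and without nuclei with Ebf2 or Ebf3 it was -1.57 (adjusted p = 0.0794). Lhx6-gated nuclei had another order, at 250.1 CPM in WT, 276 and 688 in PS19 and 478 in TG_PS19.

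Ndnf, a secreted factor of neurogliaform cells (chr6:65671590-65712326, plus strand), was at 186 CPM in WT, 94.02 and 83.9 in PS19 and 21.9 in TG_PS19. It was lower in PS19 than in WT (log2 fold change -1.05, SE 0.23, adjusted p = 0.00652) and lower again in TG_PS19 than in PS19 (log2 fold change -1.90, SE 0.35, adjusted p = 0.000336). Nearly all its UMIs lay in Gad2-rich nuclei, 184 of 187 in WT and 18 of 18 in TG_PS19. The 18 TG_PS19 UMIs came from 5 nuclei. With TG_PS19 nuclei called male the second fold change was -3.44, and with those called female -2.06. Neither step was called by RLE scaling (adjusted p = 0.193 and 0.058), by DESeq2 (adjusted p = 1.00 for each) or after thinning (adjusted p = 0.110 and 0.302).

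The summed level of the 8 Lamp5 subclass genes was lowest in TG_PS19. All 8 were tested against PS19 and 2 passed, both lower. Of the 8, 1 was above 0 and the median log2 fold change was -0.87, beside -0.01 over all genes tested. They summed to 1217 CPM in WT, 950 and 876 in PS19 and 382 in TG_PS19, and Reln alone was 766 CPM of the WT and 167 CPM of the TG_PS19 sum. In the Gad2-rich clusters it was 2339, 2022, 1543 and 744 CPM. Neurogliaform-like nuclei numbered 18, 7, 11 and 7, and fewer such nuclei and less RNA in each cannot be told apart in these sums. Cajal-Retzius cells also express Reln. Of their other markers, Lhx1 and Lhx5 had 1 UMI each in WT and 0 in PS19 and TG_PS19, Ebf3 had 1 UMI in each PS19 library and 0 in WT and TG_PS19, and Trp73 had 0 in WT, 1 and 0 in PS19 and 3 in TG_PS19.

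Vip (chr10:5639218-5647617, plus strand) was at 114 CPM in WT, 50.9 and 87.0 in PS19 and 152 in TG_PS19. TG_PS19 exceeded PS19 by a log2 fold change of 1.16 (SE 0.25, adjusted p = 0.00429), but it did not differ from WT by the test (log2 fold change 0.55, SE 0.27, adjusted p = 0.534). All Vip UMIs lay in Gad2-rich nuclei. They came from 18 nuclei in WT, 8 and 12 in PS19 and 16 in TG_PS19, or 14.5%, 15.7%, 15.2% and 19.3% of the gated nuclei, and 38 of the 125 TG_PS19 UMIs came from 1 nucleus. The fold change was 0.89 without PS19 replicate 1 and 1.68 without replicate 2, so the size rests on which replicate is used. RLE scaling (adjusted p = 0.175) and DESeq2 (adjusted p = 1.00) did not call it. In TG_PS19 nuclei called female the fold change was 0.38 (adjusted p = 0.745), and after thinning it was 0.47 (adjusted p = 0.931). Vip was the 1 of 5 tested genes of the Vip list that passed, and the 5 had a median log2 fold change of -0.23, with 2 above 0.

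Htr1f, at 57.1 CPM in TG_PS19, was lower than in PS19 (log2 fold change -1.11, SE 0.27, adjusted p = 0.0163). Inhba, an activity-regulated gene for an activin subunit, was at 74.7 CPM in WT, 56.8 and 76.5 in PS19 and 141 in TG_PS19 (log2 fold change 1.13, SE 0.25, adjusted p = 0.00489). It was the 1 of 9 tested activity-regulated genes that passed. Oprm1, the mu opioid receptor gene, was at 129, 82.3, 98.5 and 173 CPM (log2 fold change 1.00, SE 0.24, adjusted p = 0.012), 1 of 8 tested peptide receptor genes to pass. Both were highest in TG_PS19, and most of their TG_PS19 UMIs, 81 of 116 for Inhba and 89 of 142 for Oprm1, lay in Slc17a7-rich nuclei. After thinning each nucleus to 1500 UMIs the Oprm1 fold change turned to -0.10 (adjusted p = 0.98), and in TG_PS19 nuclei called female it was 0.87 (adjusted p = 0.0967). With a stricter gate the Inhba fold change was 0.62 (adjusted p = 0.962). Outside the gate, TG_PS19 was also the highest library for Inhba among Slc17a7 nuclei, at 89.3, 68.2, 70.0 and 131 CPM.

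Unc13c, a vesicle priming gene, was 1 of 24 tested release genes to pass in either contrast, lower in PS19 than in WT and higher in TG_PS19 than in PS19. It was at 64.8 CPM in WT, 7.83 and 22 in PS19 and 63.2 in TG_PS19, with log2 fold changes of -1.90 (adjusted p = 0.0009) and 2.0 (adjusted p = 0.000609). Without PS19 replicate 2 these were -2.99 and 3.10. Gpc5, Meis2, Rorb, Rmst and Chrm2 had the same shape of values. The 2 contrasts share the PS19 libraries, so a low value there enters both.

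Sex-linked genes, whose UMIs also served to call the sex of nuclei, differed between TG_PS19 and PS19. Xist, the RNA that silences an X chromosome, had 1 UMI in WT, 0 and 1 in PS19 and 863 in TG_PS19, and its antisense partner Tsix had 1, 1, 2 and 132. The Y-linked genes Eif2s3y, Ddx3y and Uty were lower in TG_PS19, by log2 fold changes of -2.0, -1.73 and -1.11 (adjusted p = 1.93e-06, 0.0163 and 0.0191). Among 94 of the 96 genes higher in TG_PS19 with an annotated type, 62.8% were non-coding, against 14.6% of all genes tested. In nuclei with no Gad1 or Gad2 UMI, 87 of the 96 were also above both PS19 libraries, or 90.6%, against 27.6% of all genes tested.

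**Figure D5:**
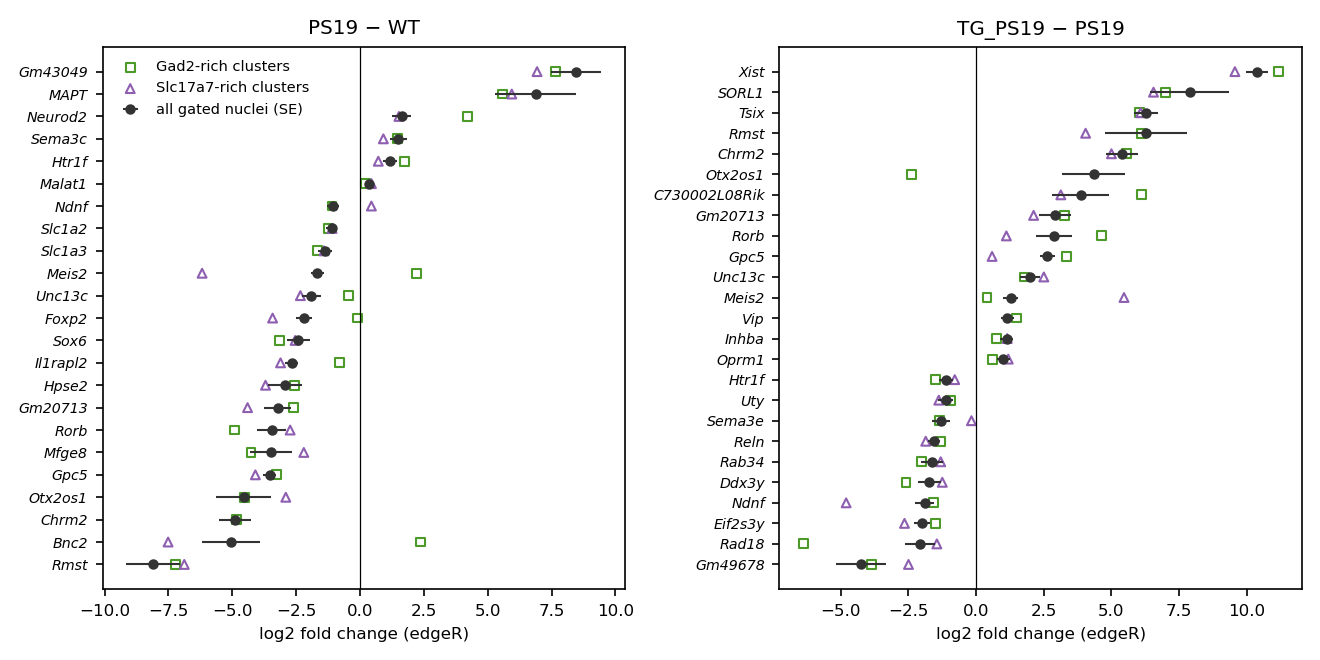
Log2 fold changes of named genes in each contrast for all Adarb2-gated nuclei (points with standard errors), and for the Gad2-rich (squares) and Slc17a7-rich clusters (triangles) alone, which carry no test. Reln lies at -1.57 in all nuclei and at -1.30 in the Gad2-rich clusters, whereas Il1rapl2 lies at -2.68 in all nuclei, -0.81 in the Gad2-rich and -3.11 in the Slc17a7-rich clusters. Values of genes with 0 UMIs in a group (Gm43049, MAPT, SORL1, Rmst) depend on the fit's prior count and are no bound.

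Between TG_PS19 and WT, 58 genes passed (0.516%), 38 higher (0.338%) and 20 lower (0.178%). Higher genes were 65.5% of the calls, 50% under RLE scaling and 35.1% with library totals alone, where the median log2 fold change of all genes was -0.15. Reln (log2 fold change -2.07, SE 0.24, adjusted p = 5.57e-10) and Ndnf (log2 fold change -2.95, SE 0.34, adjusted p = 5.57e-10) were the 2 of 8 Lamp5 genes that passed, both lower, and 3 of the 8 were above 0. Foxp2 was lower, at 106 CPM in WT and 7.29 in TG_PS19 (log2 fold change -3.70, SE 0.49, adjusted p = 5.92e-08). Nxph1, a gate gene, was at 594 CPM in WT, 405 and 357 in PS19 and 222 in TG_PS19. Kcnh5, a voltage-gated potassium channel gene, was the 1 of 27 tested potassium and HCN channel genes that passed (log2 fold change 1.73, SE 0.45, adjusted p = 0.0453), at 15.9 and 48.6 CPM. Kcnh5 and Nxph1 were named after their values were seen. RLE scaling called 8 genes in this contrast and DESeq2 called 3. Reln was among the genes called by DESeq2, whereas Ndnf, Foxp2 and Kcnh5 were not.

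None of 12 GABA-A receptor subunits, 17 ionotropic glutamate receptors, 19 sodium and calcium channel genes, 12 chaperone and stress genes or 15 nuclear-encoded oxidative phosphorylation genes passed in any of the 3 contrasts by edgeR. DESeq2 called 0 of these 75 genes as well. Of them, 4, 9 and 13 had an unadjusted edgeR p under 0.05 in PS19 against WT, TG_PS19 against PS19 and TG_PS19 against WT. Over all 11248 genes tested, 653, 1068 and 1013 did in that order. The median log2 fold changes of these 5 lists lay between -0.36 and 0.19 for PS19 against WT and for TG_PS19 against PS19. For PS19 against WT the largest shift was in the chaperones, at -0.36, with 2 of 12 above 0. The kainate receptor gene Grik2 was at 2437 CPM in WT, 2078 and 2659 in PS19 and 2538 in TG_PS19. At 1 residual degree of freedom a missed threshold does not show that levels were equal.

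The PS19 effect differed between Adarb2-gated and Lhx6-gated nuclei for 13 of 10658 genes (0.122%), and the TG_PS19 effect for 9 (0.0844%), by edgeR's test of the interaction with library as a block. The Lhx6-gated nuclei numbered 71 in WT, 17 and 25 in PS19 and 59 in TG_PS19. Il1rapl2 fell in Adarb2-gated nuclei and was at 620, 707 and 713 CPM in WT and PS19 Lhx6-gated nuclei (difference of log2 fold changes -2.98, SE 0.44, adjusted p = 0.000607). Htr2c, a serotonin receptor gene, was at 130, 97.9 and 191 CPM in Adarb2-gated nuclei of WT and PS19. In Lhx6-gated nuclei it was at 14.1, 171 and 147 CPM (difference -3.30, SE 0.58, adjusted p = 0.00542). Sorcs3, a relative of SORLA, was at 358, 372 and 440 CPM in Adarb2-gated and at 173, 31.1 and 29.9 CPM in Lhx6-gated nuclei (difference 2.70, SE 0.47, adjusted p = 0.00529).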

How the data were processed

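The deposited values were raw UMI counts per gene and nucleus, which the authors obtained from Cell Ranger 7.1.0 on build GRCm38, per the submitters' processing notes. The feature list held 55401 mouse and 2 human genes, and 54349 identifiers were in GENCODE release M21, whose coordinates are given. Whether intron reads were counted and strand was used is not given in the sources used here. The gated nuclei and all gene lists were chosen with earlier results of these data known.

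Counts of gated nuclei were summed per library (510537 to 1003570 UMIs) and tested with edgeR 4.0.16 (filterByExpr, TMM, quasi-likelihood, two-sided, R 4.3.3, limma 3.58.1), with groups WT (1 library), PS19 (2) and TG_PS19 (1). Differences from Lhx6-gated nuclei were interactions over 8 sums. Prior degrees of freedom were 81.2 and the dispersion came from the PS19 pair, whose counts differed by 1.93 chi-square per degree of freedom over 8871 genes. In data simulated for PS19 minus WT on 10635 genes, 147 of 193 changes of 4-fold were recovered, with 5 false calls. The simulation gave every gene and library the same dispersion, so it could not test the assumption made for the lone libraries.

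Named genes were, per contrast, the 10 largest and 10 smallest called fold changes with at least 20 UMIs (5 for TG_PS19 minus WT), every called list member, the 6 markers, the transgenes and each functional list's most abundant member. Some of these are not reported here. For the differences between types they were the 5 of smallest adjusted p. CPM are per 1000000 UMIs of the gated nuclei, with the floor of 3 counts per group for a count of 0, and intervals are exact and cover counting error only.

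Nuclei were clustered with scanpy 1.11.5 and leidenalg 0.10.2 (Python 3.11.15; 10000 scaling, 1000 variable genes, 15 components, 15 neighbours, resolution 0.5). Mitochondrial and sex-linked genes, MAPT and SORL1 were left out of the clustering. Raised markers had a log2 fold of at least 1 over the other gated nuclei, with 10 CPM added, and detection in 10% of nuclei, and at least 3 raised markers were needed for a name. The division into Gad2-rich and Slc17a7-rich clusters was made after the data were seen. Gad2-rich clusters raised at least 3 markers of the GABA, caudal eminence, Vip, Cck and Lamp5 lists, and more than of the excitatory and granule lists. Slc17a7-rich clusters raised at least 3 of the excitatory and granule lists, and more of these. Genes shared between lists counted for each list. Neither Gad2 nor Slc17a7 alone set the division. Doublets were scored by the method of Scrublet, marking 0.8% of barcodes per 1000, and kept. Alternatives were RLE scaling, library totals, other low-count filters, stricter and looser gates, thinning, doublet removal, leaving out nuclei with Ebf2 or Ebf3, nuclei of 1 called sex and DESeq2 1.42.0.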

Additional observations from a re-analysis of the deposited data

Results flagged for a closer look

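The interaction test of Adarb2-gated against Lhx6-gated nuclei called 13 of 10658 genes (0.122%) for PS19 minus WT. For TG_PS19 minus PS19 it called 9 (0.0844%). Listed here are the 5 called genes of smallest adjusted p in each contrast. For PS19 minus WT the differences of log2 fold changes (Adarb2-gated minus Lhx6-gated) were -2.98 for Il1rapl2, 5.04 for Cdh6, -3.42 for Gpc5, 2.70 for Sorcs3 and -3.30 for Htr2c. Cdh6, a cadherin gene, was at 4.98 CPM in WT and 9.79 and 25.2 in PS19 among Adarb2-gated nuclei, and at 150 CPM in WT and 15.5 and 17.5 in PS19 among Lhx6-gated nuclei (adjusted p = 0.000607). Gpc5 was at 102 CPM in WT and 7.77 and 165 CPM in the PS19 replicates among Lhx6-gated nuclei, so those replicates lay on either side of WT.

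For TG_PS19 minus PS19 the differences were 4.49 for Chrm2, 2.43 for Zfpm2, 5.44 for Xist, -4.12 for Foxp2 and -6.46 for Stac. Zfpm2, a zinc finger cofactor of GATA factors, was at 572 and 566 CPM in PS19 and 806 in TG_PS19 among Adarb2-gated nuclei, and at 330.4 and 626 CPM in PS19 and 131 in TG_PS19 among Lhx6-gated nuclei (adjusted p = 0.0104). Chrm2 rested on 45 UMIs of 1 nucleus in TG_PS19. Xist had 15 UMIs among Lhx6-gated nuclei of PS19 replicate 1. Stac had 1 UMI in the Adarb2-gated nuclei of TG_PS19, against 69 UMIs in the Lhx6-gated ones. The Lhx6-gated groups of PS19 held 17 and 25 nuclei.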

How the results depend on the processing

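Counts of genes passing, given as PS19 against WT, TG_PS19 against PS19 and TG_PS19 against WT, were 37, 107 and 58. They were 12, 12 and 8 with RLE scaling, 22, 65 and 24 for genes of at least 20 CPM, 22, 41 and 22 with a looser gate, 7, 5 and 11 after thinning to 1500 UMIs, 1, 6 and 6 without nuclei with Ebf2 or Ebf3, and 1, 4 and 3 by DESeq2. At unadjusted p under 0.05, DESeq2 had 35, 70 and 54. The estimated prior degrees of freedom were 81.2, 11.5 with RLE scaling and 7.76 without nuclei with Ebf2 or Ebf3. A stricter gate gave 68 and 30 in the first 2 contrasts. TG_PS19 against WT gave 94 with library totals, 93 with adjusted residual degrees of freedom (an alternative chosen after seeing the data), 145 without doublets, and 165 and 135 for nuclei called male and female. Interactions (13 and 9) were 34 and 19 with RLE scaling, 25 and 19 unfiltered, 31 and 23 with a robust prior, 25 and 37 without doublets, and 6 and 0 after thinning, with 142 at unadjusted p under 0.05 in the last. Shares of gated nuclei (WT, PS19 replicates 1 and 2, TG_PS19) were 0.211%, 0.209%, 0.272% and 0.150% when the gate followed thinning, 0.376%, 0.696%, 0.773% and 0.387% with the stricter gate, and 2.24%, 2.20%, 2.42% and 1.92% at 3000 UMIs or more.

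Named genes changed sign 11 times. In PS19 against WT, Bnc2 (2.37) and Meis2 (2.22) did so in the Gad2-rich and Ndnf (0.45) in the Slc17a7-rich clusters. In TG_PS19 against PS19, Otx2os1 did so with the stricter gate (-2.19), in nuclei called male (-2.24) or female (-2.29) and in Gad2-rich clusters (-2.37), Gpc5 (-0.41) and Meis2 (-1.40) in nuclei called female, and Oprm1 after thinning (-0.10). In TG_PS19 against WT, Foxp2 did so in Gad2-rich clusters (0.18). Of the other values of named genes, 1534 stayed on their side of the threshold or, where untested, within 1 SE, 265 fell below the threshold and 15 newly passed it. A further 156, from 1 kind of cluster alone or without 1 PS19 library, had no test and moved by more than 1 SE. Genes not called could change sign among these. Xist was the 1 named gene of TG_PS19 against PS19 called under all alternatives, and for PS19 against WT there were 0. The causes were not tested, apart from fewer UMIs after thinning. No paired analysis was possible because WT and TG_PS19 have 1 library each. Without either PS19 library no residual degree of freedom is left, so counts of calls were not run, and fold changes of called named genes kept their sign. At these depths a gene with 0 UMIs may reach 2.99 CPM in WT and 5.88 CPM in PS19 replicate 1.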

Other observations

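Several further genes of TG_PS19 nuclei stood out by value. The guidance gene Sema3e was at 53.8 CPM in WT, 64.6 and 95.4 in PS19 and 31.6 in TG_PS19, and was lower than in PS19 (log2 fold change -1.29, SE 0.33, adjusted p = 0.024). Rab34, a small GTPase gene linked to primary cilia, was at 53.8, 49.0, 54.5 and 15.8 CPM (log2 fold change -1.62, SE 0.41, adjusted p = 0.0251). The ubiquitin ligase gene Rad18 was at 22.9, 35.3, 31.4 and 7.29 CPM (log2 fold change -2.06, SE 0.56, adjusted p = 0.0434). For these 3 genes TG_PS19 was the lowest of the 4 libraries. Their TG_PS19 levels rested on 26, 13 and 6 UMIs, and neither RLE scaling nor DESeq2 called them.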
